A study of Mus musculus with 6 samples.

Results

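The genes described here form part of the drug barrier of the small intestine: the cytochrome P450 enzymes Cyp3a11, Cyp3a13, Cyp3a16, Cyp3a25 and Cyp2b10, the efflux pumps Abcb1a, Abcb1b and Abcc2, and the nuclear receptors Nr1i2 and Nr1i3. Members were taken by name, as every probe set whose single gene symbol in the platform annotation is exactly one of these 10 symbols. All 10 genes were on the array, of 8251 genes with a probe set of their own, and they had 12 probe sets. The genes had been selected on the null and control values of these same arrays, which were known when the group was put together. Their differences between null and control mice are therefore given as a description, without a p-value, and nothing is supported with them. The tested mice were 3 Cftr null animals, CFTR(-/-), set against 3 Cftr control animals, CFTR(+/+), which were all congenic black6 mice aged 40 days. All 6 had received Peptamen, a liquid diet that prevents blockage of the gut, from day 10 of life. Each group had 2 males and 1 female, the females being null replicate 2 and control replicate 3, and RNA of the entire small intestine of 1 mouse went onto each 1-colour Affymetrix array. The altered part of Cftr, and the cells in which it was lost, are not named in the labels.

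Cyp3a and Cyp2b enzymes oxidise drugs, steroids and bile acids in the endoplasmic reticulum, and the P-glycoproteins encoded by Abcb1 genes pump many of the same compounds from the enterocyte back into the gut lumen. Nr1i2 (the pregnane X receptor) and Nr1i3 (the constitutive androstane receptor) bind DNA together with a retinoid X receptor. When a drug, steroid or bile acid activates them they raise transcription of Cyp3a, Cyp2b and efflux pump genes in liver and intestine.

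The arrays had been scaled before deposit, to a 2%-trimmed mean of 500.3 on each, and a value is a scaled intensity in arbitrary units that can be compared between mice for 1 probe set but not between probe sets. Cftr, read by the brightest of its probe sets, was at 325.9, 295.6 and 368.5 in null mice and at 801.6, 1017.5 and 1002.0 in control mice, and was called lower (log2 change -1.47, adjusted p = 0.00421 in limma). Ratios of the 3' to the 5' actin probe set were 1.12 to 1.20 in null mice and 1.12 to 1.20 in control mice. The labelled tissue was checked against its markers. All 19 enterocyte markers on the array passed the filter on dim probe sets, among them Vil1 (villin), at a mean of 8486 in null and 10352 in control mice. Of 15 liver markers on the array 10 were too dim to be tested, and albumin, Alb, was at 69.2 to 103.0 in null and 38.9 to 84.6 in control mice. One array stood apart in markers of the distal small intestine. Fabp6, the ileal bile acid binding protein, was at 880.2, 2158.5 and 1116.0 in null mice and at 7441.1, 100.3 and 6098.7 in control replicates 1 to 3. Fgf15, the ileal hormone of bile acid feedback, was at 148.5, 43.8 and 82.7 in null mice and at 152.9, 6 and 153.8 in control mice. Control replicate 2 thus had very little of either, although its label names the entire small intestine, and Cubn, another distal marker, was not low in it (3666.9, 3183.4 and 4704.5 in control replicates 1 to 3).

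The 4 Cyp3a genes lie on chromosome 5. In the RefSeq annotation Cyp3a11 and Cyp3a25 are direct neighbours in the large Cyp3a cluster, which also holds Cyp3a16, whereas Cyp3a13 stands apart from it; Abcb1a and Abcb1b are direct neighbours elsewhere on the same chromosome. The windows from 250 bases before to 50 bases after the annotated start are printed for the 3 members with the largest differences, Cyp3a11, Cyp3a25 and Abcb1a, for Cyp3a16, which shares a probe set with Cyp3a11, and for Cyp3a13, whose difference was small. Capitals mark the 6-letter core motifs AGGTCA and AGTTCA, which receptors of this family bind as pairs, and the site CAAAGTCCA of Hnf4a, a nuclear receptor of liver and intestine, all read on both strands. All are from RefSeq, build GRCm38.p6.
Cyp3a11, chr5:145879805-145880104, minus strand: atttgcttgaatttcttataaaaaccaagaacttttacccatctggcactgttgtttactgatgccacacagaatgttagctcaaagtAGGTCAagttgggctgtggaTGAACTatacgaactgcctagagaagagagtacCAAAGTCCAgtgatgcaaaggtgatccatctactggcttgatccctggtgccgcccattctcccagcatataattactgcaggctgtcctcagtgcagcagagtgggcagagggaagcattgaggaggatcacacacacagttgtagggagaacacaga
Cyp3a25, chr5:146009569-146009868, minus strand: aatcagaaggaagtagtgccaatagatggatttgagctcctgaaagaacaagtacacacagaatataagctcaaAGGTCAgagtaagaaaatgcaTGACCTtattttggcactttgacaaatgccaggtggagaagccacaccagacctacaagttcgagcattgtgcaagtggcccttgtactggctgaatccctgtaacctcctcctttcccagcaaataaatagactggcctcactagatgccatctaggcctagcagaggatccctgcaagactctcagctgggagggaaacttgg
Abcb1a, chr5:8566841-8567140, plus strand: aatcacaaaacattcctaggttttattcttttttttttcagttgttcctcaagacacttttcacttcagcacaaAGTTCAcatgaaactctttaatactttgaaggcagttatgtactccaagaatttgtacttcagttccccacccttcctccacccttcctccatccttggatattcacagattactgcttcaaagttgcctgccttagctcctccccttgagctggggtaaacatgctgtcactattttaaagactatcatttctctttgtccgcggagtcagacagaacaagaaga
Cyp3a16, chr5:145469674-145469973, minus strand: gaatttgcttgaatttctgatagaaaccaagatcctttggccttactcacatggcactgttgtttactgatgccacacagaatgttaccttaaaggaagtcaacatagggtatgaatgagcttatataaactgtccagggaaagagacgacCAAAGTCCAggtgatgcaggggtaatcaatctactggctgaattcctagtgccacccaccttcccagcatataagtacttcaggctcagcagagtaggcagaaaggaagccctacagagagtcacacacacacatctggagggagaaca
Cyp3a13, chr5:137921570-137921869, minus strand: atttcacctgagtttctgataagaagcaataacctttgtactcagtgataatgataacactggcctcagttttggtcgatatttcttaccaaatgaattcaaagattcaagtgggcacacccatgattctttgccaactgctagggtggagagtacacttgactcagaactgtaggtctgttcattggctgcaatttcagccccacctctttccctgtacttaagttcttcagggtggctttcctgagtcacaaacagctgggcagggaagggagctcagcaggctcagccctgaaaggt

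The Cyp3a11 window held AGGTCA on the strand of the gene, 162 bases before the start, and AGTTCA on the opposite strand, 142 bases before it. The Cyp3a25 window, taken at the first of its 2 listed starts, likewise held a pair facing opposite ways, AGGTCA on either strand, 176 and 155 bases before the start. Abcb1a had a single AGTTCA, 176 bases before its start, and Abcc2 a single AGGTCA, 49 bases before. The windows of Cyp3a13, Cyp3a16, Cyp2b10, Abcb1b, Nr1i2 and Nr1i3 held neither core motif. So 4 of 10 members had at least 1 of them, against 27.7% of all 32851 promoter windows. CAAAGTCCA was found in Cyp3a11 (109 bases before the start) and Cyp3a16 (99 bases before) and in 0.475% of all windows. It overlaps no other motif searched. The motifs were chosen after the promoters had been seen, so these shares are no test of enrichment. The windows of Cyp3a11 and Cyp3a16 are also much alike, so their matches are not independent. The spaced pairs searched were AGTTCA repeated directly 3 bases apart, AGGTCA followed by AGTTCA 4 bases apart, and AGTTCA turned outward 6 bases from AGTTCA or AGGTCA. None of the members held an exact match, and such pairs were found in 0 windows as direct repeats and in 0.00609% as the everted AGTTCA pair. Pairs with a changed letter, or outside these windows, were not searched, so their absence is not shown. A match is a run of letters, not a measured binding site. The Cyp3a11 and Cyp3a16 windows were 74.8% identical when aligned end to end, and the other pairs of Cyp3a windows 48.4% to 54.4%.

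Of the 12 probe sets, 10 passed the filter on dim values, standing for 8 genes; those of Cyp3a16 and Abcb1b did not. In the fit over all probe sets 5 of these 10 were called lower in null mice and 0 higher (adjusted p under 0.05), namely those of Cyp3a11, Cyp3a25, Cyp2b10 and Abcb1a and 1 of the 3 of Nr1i3. Of all 7601 probe sets tested 1.87% were called lower and 1.13% higher. In 9 of the 10 every null value lay below every control value, as in 10.8% of all tested probe sets, with 23.8% not overlapping in either direction. The fitted change was below 0 in 10 of 10, against 45.7% of all. These counts follow from how the genes were chosen. In whole-tissue RNA, fewer cells of a type and less RNA per cell cannot be told apart.

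**Figure D1:**
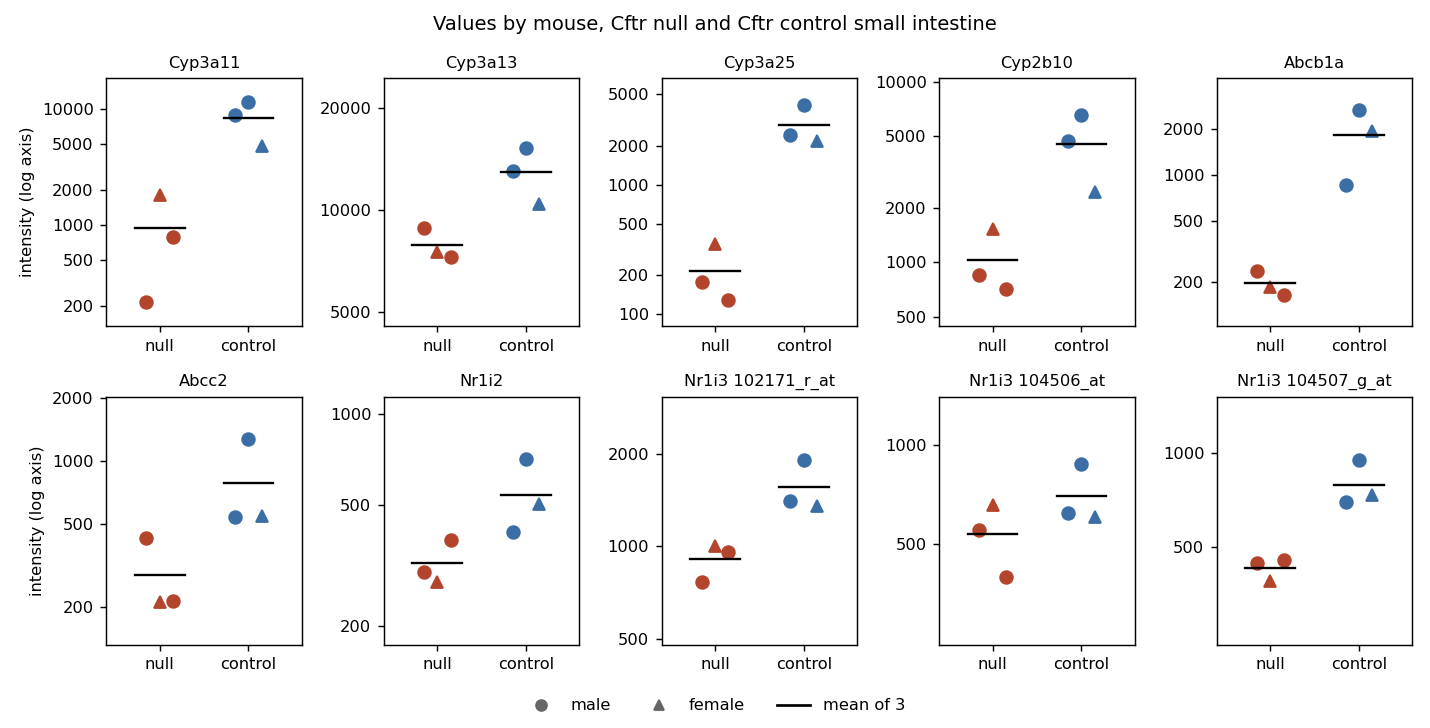
Intensity (vertical log axes, arbitrary units) in each of 3 Cftr null and 3 Cftr control mice, for the 10 probe sets above the filter; circles are males, triangles females and bars the mean of 3. The groups overlap only for 1 of the 3 Nr1i3 probe sets, and control replicate 2 is the highest control in every panel.

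Cyp3a11, a major Cyp3a enzyme of the mouse, was at 216.6, 1800.7 and 782.7 in null replicates 1 to 3 and at 8766.6, 11375.9 and 4776.8 in control replicates 1 to 3. The groups were far apart, the lowest control being 2.65 times the highest null, yet the nulls differed among themselves, with a coefficient of variation of 86.0%. Null replicate 1 held 2.61% of the control mean and the female, null replicate 2, held 21.7%. The fitted difference was 11.3-fold lower in null mice (log2 change -3.50, SE 0.68). A probe set annotated to both Cyp3a16 and Cyp3a11, which is no member by the rule, gave the same order of mice, at 156.4, 1377.1 and 449.1 in null and 8838.4, 12771.4 and 4544.3 in control mice. Its log2 change was -4.07 (SE 0.71), and it was called lower. How much of the Cyp3a11 signal comes from near-identical Cyp3a transcripts was not tested.

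Cyp3a25, a Cyp3a enzyme of liver and gut, differed most among the tested member probe sets, though less than the shared Cyp3a16 and Cyp3a11 probe set. It was at 176.9, 345.4 and 129.6 in null replicates 1 to 3 and at 2411.2, 4132.6 and 2155.8 in control replicates 1 to 3. The lowest control was 6.24 times the highest null, the widest gap of all 12 probe sets. The difference was 13.2-fold (log2 change -3.72, SE 0.36), and 3 probe sets of the 7601 had a lower fitted change.

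Cyp2b10, the classic Nr1i3 target of mouse liver, was at 847.1, 1535.8 and 709.1 in null mice and at 4669.8, 6499.5 and 2443.3 in control mice. The groups did not overlap, but both females lay toward the other group: the null female was the highest null and the control female the lowest control, as for Cyp3a11 and Cyp3a25. The fitted difference was 4.27-fold lower in null mice (log2 change -2.10, SE 0.39).

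Cyp3a13, a Cyp3a enzyme that stands apart from the cluster, was much less different than its relatives. It was at 8823.5, 7498.8 and 7257.2 in null mice and at 13015.4, 15229.8 and 10414.1 in control mice. The null mean was 61.0% of the control mean (log2 change -0.70, SE 0.16), with 1.18 times between the highest null and the lowest control, and the probe set was not called. Cyp3a16, an enzyme best known from fetal and newborn liver, was at 4.90, 15.0 and 4.20 in null mice and at 56.0, 29.7 and 37.1 in control mice. All 6 values lay under the filter level of 109.7, so Cyp3a16 was not tested and no fold is given.

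Among the pumps, Abcb1a, the P-glycoprotein gene of the mouse intestine, was at 235.3, 185.9 and 164.7 in null replicates 1 to 3 and at 853.2, 2651.9 and 1915.0 in control replicates 1 to 3. Here the nulls lay close together and the controls were wide apart, with coefficients of variation of 18.5% and 50.0%. The lowest control was 3.63 times the highest null. The fitted difference was 8.01-fold lower in null mice (SE 0.37 on the log2 scale).

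Abcb1b, the other P-glycoprotein gene of rodents and the direct neighbour of Abcb1a, was at 22.8, 12.6 and 20.5 in null mice and at 7.10, 26.8 and 22.9 in control mice. The groups overlapped and all values lay under the filter level, so no level of Abcb1b could be compared. Abcc2, which exports glucuronide and glutathione conjugates across the apical membrane, was at 427.2, 210.9 and 212.6 in null mice and at 538.4, 1268.8 and 543.2 in control mice. The groups came close, at 1.26 times between the highest null and the lowest control, and Abcc2 was not called (log2 change -1.38, SE 0.39). Without control replicate 2, which was more than double the other controls, its log2 change was -0.98.

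The receptors had changes near that of Cyp3a13, smaller than those of Cyp3a11, Cyp3a25, Cyp2b10 and Abcb1a. Nr1i2 was at 302.7, 278.5 and 384.4 in null mice and at 408.9, 710.4 and 503.5 in control mice. The highest null and the lowest control were only 1.06 times apart, and the probe set was not called (log2 change -0.70, SE 0.22). Nr1i3 was read by 3 probe sets. The brightest was at 765.9, 1002.0 and 958.6 in null mice and at 1405.4, 1919.8 and 1358.0 in control mice (log2 change -0.76, SE 0.17; not called).

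Another Nr1i3 probe set was at 442.6, 387.5 and 454.7 in null mice and at 694.9, 950.5 and 736.5 in control mice (log2 change -0.86, SE 0.15), and was called lower. The third was at 551.3, 659.4 and 396.4 in null mice and at 620.6, 876.3 and 605.0 in control mice. In the third the groups overlapped, since the null female exceeded the 2 lower controls (log2 change -0.39, SE 0.22; not called). The 3 probe sets thus put the null mean at 53.9% to 76.5% of the control mean. With the log2 values of the 3 averaged, Nr1i3 had a log2 change of -0.67 (SE 0.15) and was not called.

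**Figure D2:**
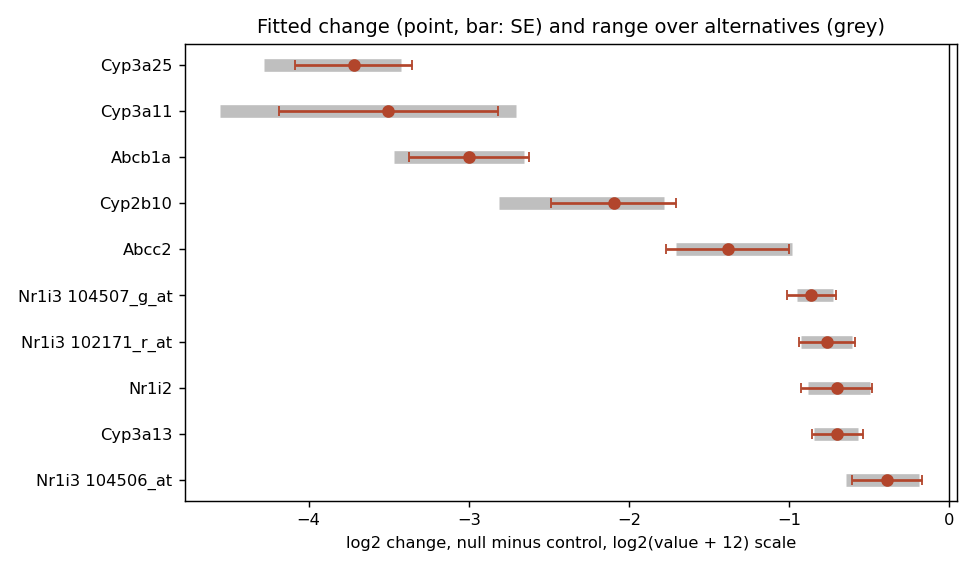
Fitted log2 change, null minus control (horizontal axis, log2(value + 12) scale), of the 10 probe sets above the filter, with points for the fit, red bars for its SE and grey bands for the range over 16 other settings. Cyp3a25 and Cyp3a11 lie at -3.72 and -3.50, followed by Abcb1a, Cyp2b10 lies at -2.10, and the receptors and Cyp3a13 between -0.86 and -0.39.

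Calls depended on single mice, except those of Cyp3a25 and Abcb1a, which were made without any 1 of the 6. Every such fit reuses arrays on which the genes were chosen, so a call that was kept is no independent support. Cyp3a11 was called only without null replicate 2 when a mouse was left out, and Cyp2b10 only without null replicate 2 or without control replicate 3, the females. Without null replicate 1 the log2 change of Cyp3a11 was -2.70, and without null replicate 2 it was -4.20. Control replicate 2 was the highest control in 10 of 10 probe sets, whereas it was the highest control in 38.9% of all tested probe sets. This is the array with little Fabp6 and Fgf15, and the part of that in the members' control values was not tested. Without it, 2 of 10 were called, Cyp3a25 and Abcb1a. The log2 changes were then -3.23 for Cyp3a11, -3.43 for Cyp3a25, -1.78 for Cyp2b10, -2.65 for Abcb1a, -0.57 for Cyp3a13, -0.49 for Nr1i2 and -0.73 to -0.22 for the Nr1i3 probe sets.

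The labels do not explain the sample codes. Null replicate 3 and control replicate 1 share the middle part of the code, and its first letters too. Null replicates 1 and 2 and control replicate 3 share another middle part, and that of control replicate 2 stands alone. Within the first set the log2 change was -3.47 for Cyp3a11, -4.10 for Cyp3a25, -2.70 for Cyp2b10 and -2.29 for Abcb1a. Within the second set it was -2.90 for Cyp3a11, -3.06 for Cyp3a25, -1.09 for Cyp2b10 and -3.12 for Abcb1a. Closest to 0 were Nr1i2, at -0.09 within the first set, and 1 Nr1i3 probe set, at -0.005 within the second. Each set holds 1 control, and the genes were chosen on these same arrays, so the signs within the sets support nothing. With the shared code as a block 2 of 10 were called in limma, Cyp3a25 and Abcb1a.

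Sex was given in the labels and had no part in the choice of genes, so it could be tested. With genotype in the model, 0 of the 10 probe sets differed between females and males, at an adjusted p or at an unadjusted p under 0.05 (limma; lowest adjusted p = 0.921, for Cyp3a13 and others). The female minus male log2 difference ran from -0.55 for Abcc2 to 0.51 for Cyp3a11. Of all 7601 probe sets 2, or 0.0263%, were called, of which 1 has a gene symbol, the Y-linked Eif2s3y, and 378 had an unadjusted p under 0.05.

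The difference between null and control was smaller in the single pair of females than in the 4 males for Cyp3a11, Cyp3a25 and Cyp2b10. Cyp3a11 was 2.64-fold lower in the null female than in the control female, and 23.5-fold lower in null than in control males. Cyp2b10 was 1.59-fold lower in the null female and 7.01-fold lower in null males, and Cyp3a25 was 6.07-fold and 19.4-fold lower. Abcb1a did not share this order, being 9.74-fold lower in the null female and 7.26-fold lower in null males.

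As an interaction of genotype and sex, fitted over all probe sets with limma, this was 2.14 on the log2 scale for Cyp2b10 (SE 0.38, unadjusted p = 0.00105), 3.15 for Cyp3a11 (SE 0.94, unadjusted p = 0.014) and 1.68 for Cyp3a25 (SE 0.51, unadjusted p = 0.0156). None held after adjustment (adjusted p = 0.9998 for each in limma), and 0 of 7601 probe sets (0%) were called. At an unadjusted p under 0.05 there were 3 of the 10 probe sets and 236 of all 7601. Genes outside the group had interactions of like size on the log2 scale, such as lactase, Lct (2.93), Aldh1a7 (2.11), Ugt2b5 (1.99) and Aldh1a1 (1.35). Others went the other way, such as Apob (-0.63). With 1 female a group, the sex of the 2 females and any other trait of theirs cannot be told apart.

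**Figure D3:**
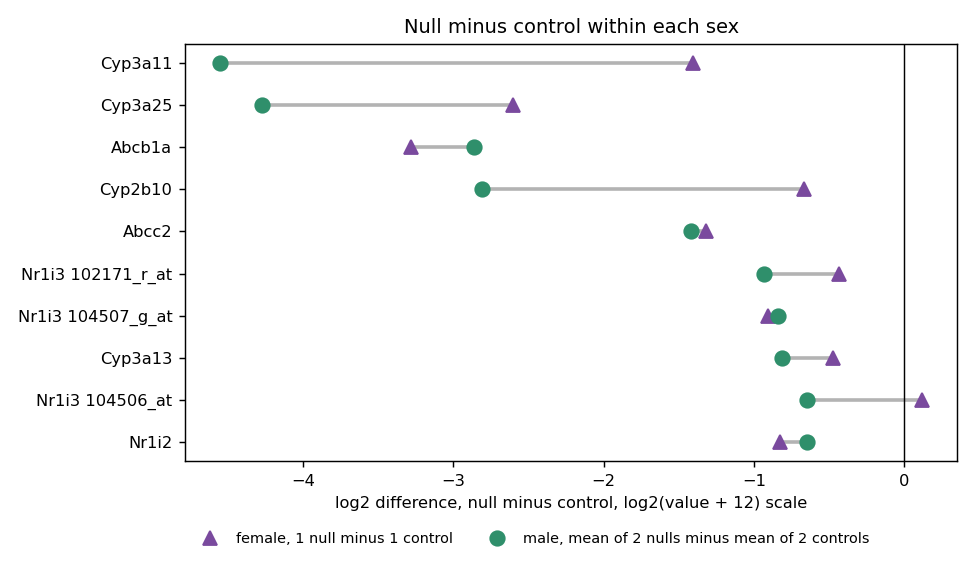
Log2 difference, null minus control (horizontal axis, log2(value + 12) scale), for the pair of females (triangles, 1 null and 1 control) and for males (circles, 2 nulls and 2 controls). Cyp3a11 is at -1.40 in females and -4.55 in males, and Cyp2b10 at -0.67 and -2.81, whereas Abcb1a is at -3.28 in females and -2.86 in males.

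The other genes of the pathway were read from lists chosen with earlier results of these arrays known, each gene by its brightest tested probe set, beside a median log2 change of 0.03 over all 7601 probe sets. Of 39 further genes that Nr1i2 or Nr1i3 are known to act on, mostly from mouse liver, 23 were on the array and 17 passed the filter. Their median log2 change was -0.69, and 14 of the 17 were below 0, against 45.7% of all tested probe sets. In null mice 4 of the 17 were called lower and 0 higher, against 1.87% and 1.13% of all. They were the glucuronosyltransferase Ugt2b5 (log2 change -3.11, SE 0.48, adjusted p = 0.0177 in limma), the aldehyde dehydrogenases Aldh1a1 (log2 change -2.42, SE 0.31, adjusted p = 0.00987 in limma) and Aldh1a7, and the glutathione transferase Gstt1. Aldh1a7 was at 75, 110.0 and 80.5 in null mice and at 503.2, 1162.9 and 233.2 in control mice, at least 4.35-fold lower (adjusted p = 0.047 in limma), since the null level lay under the filter level. Gstt1 was at 518.2 ± 80.0 in null and 1526.5 ± 296.3 in control mice (SD, n = 3 each; adjusted p = 0.00604 in limma).

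The groups of these 4 genes did not overlap. Without null replicate 1 a single member of the list was called, and without null replicate 3 or control replicate 1 there were 2. Others were not called, some of them with large changes. Gsta4 (log2 change -1.61) and Cyp2c38 (-1.18) did not overlap between the groups, whereas Gstm3 (-1.26) and Gsta2 (-1.08) did. Alas1, which starts haem synthesis and answers both receptors in liver, was at 2842 in null and 2337 in control mice. Gstp1 was at 7778 in null and 8615 in control mice.

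Of 20 other transporters of the ABC family, 13 were on the array and 10 passed the filter, with 0 calls in either direction (limma) and a median log2 change of -0.19. The brightest were Abcg2, the breast cancer resistance protein, which pumps drugs across the same apical membrane, at 1914 ± 197 in null and 2174 ± 231 in control mice, and Abcc3, a pump of the basolateral membrane, at 1531 ± 208 in null and 1879 ± 588 in control mice (SD, n = 3 each). Both groups overlapped for each of them. Abca1, an exporter of cholesterol, was at 310.2 ± 170.0 in null and 1101.5 ± 399.5 in control mice without overlap (adjusted p = 0.0552 in limma). In 4 of 16 alternatives 1 gene of the list was called lower: with the stricter filter, with sex as a covariate, with males only and without null replicate 2. Of 9 further Cyp3a and Cyp2b genes 3 were on the array, all of them Cyp2b genes, and 0 passed the filter.

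No partner of the receptors was called. Of 16 listed partners and coregulators 12 were on the array and 8 tested (0 called in limma), with a median log2 change of -0.01. Rxra, the retinoid X receptor that pairs with Nr1i2 and Nr1i3, was at 887.7 ± 133.7 in null and 916.7 ± 87.0 in control mice (SD, n = 3 each). Rxrb was at 1109 ± 152 in null and 1479 ± 127 in control mice (SD, n = 3 each), without overlap but not called. Of 32 further nuclear receptors and transcription factors of gut and liver 28 were on the array and 23 tested, 12 of them with a change below 0. Of the 23, 1 was called lower: Ppara, the fatty acid receptor (log2 change -1.27, SE 0.19, adjusted p = 0.0151 in limma). Ppara was not called without null replicate 1 or with males only. Hnf4a was at 897.6, 668.0 and 1878.2 in null mice and at 523.0, 1478.7 and 638.8 in control mice. Its groups overlapped and it was not called.

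P450 enzymes need electrons and haem. Of 17 genes of electron supply and haem turnover 14 were on the array and 13 tested. Their median log2 change was -0.16, and 11 of the 13 were below 0. In null mice 3 were called lower and 0 higher. They were Cyb5r3, which reduces cytochrome b5 (log2 change -1.14, SE 0.16, adjusted p = 0.0145 in limma), Cyb5a, cytochrome b5 itself (log2 change -0.83, SE 0.13, adjusted p = 0.0185 in limma), and Pgrmc1, a haem-binding protein that interacts with P450 enzymes (log2 change -0.86, SE 0.18, adjusted p = 0.0456 in limma). None of the 3 passed without null replicate 1, without null replicate 3 or without control replicate 1. Of 8 targets of the vitamin D receptor, which also acts on Cyp3a genes of the gut, 2 were tested and neither was called: the calcium-binding protein S100g, at 1062 in null and 2280 in control mice, and the claudin Cldn2, at 933.5 in null and 425.4 in control mice.

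**Figure D4:**
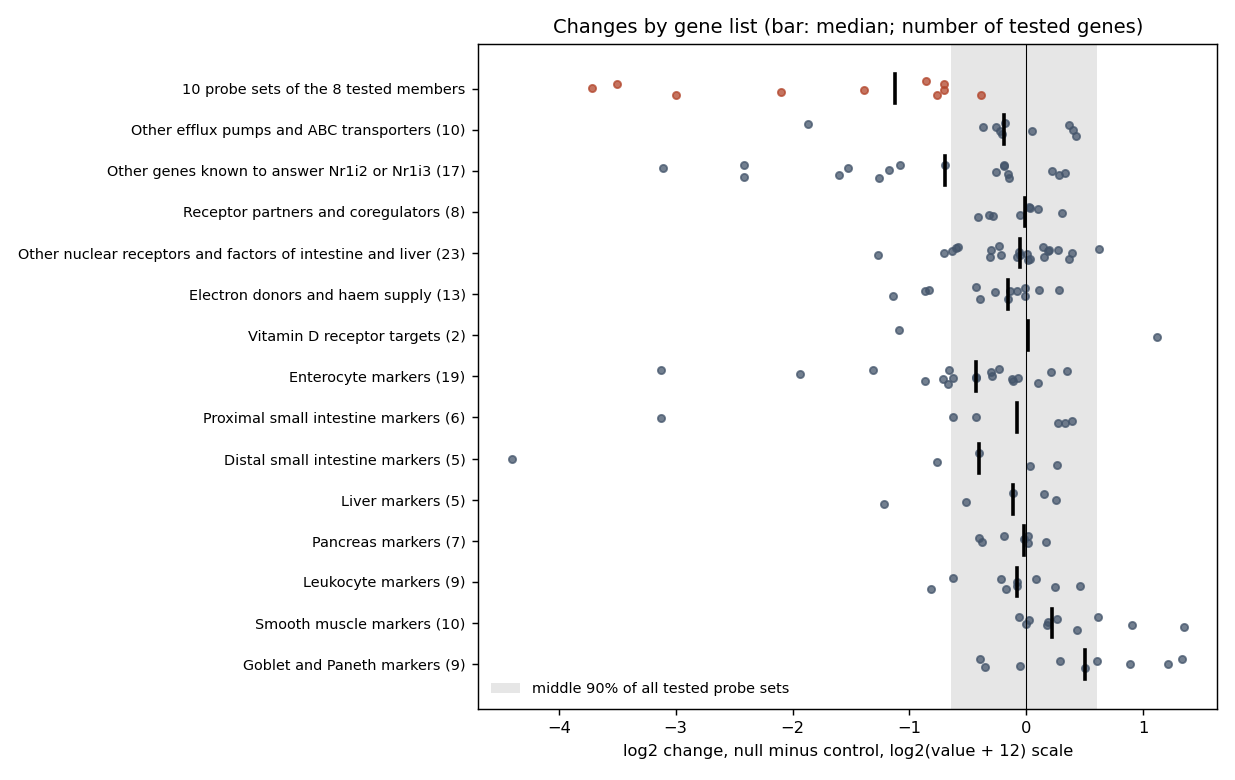
Fitted log2 change, null minus control (horizontal axis, log2(value + 12) scale), of each tested member probe set (red) and of each tested gene of the other lists (grey-blue), with the median of each as a black bar; the shaded band holds the middle 90% of all 7601 tested probe sets, and the number of tested genes follows each name. The medians are -1.12 for the 10 member probe sets, -0.69 for the other genes of Nr1i2 or Nr1i3, -0.43 for enterocyte markers and 0.22 for smooth muscle markers.

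Markers of cell types were read beside the members. The summed level of the 19 enterocyte markers was 119573 to 161520 in null mice and 175485 to 210706 in control mice, so that the groups did not overlap. In such a sum the brightest markers weigh most. Of the 19, 16 had a log2 change below 0, the median was -0.43 and 1 was called, Akp3, an alkaline phosphatase of the brush border (1513 ± 219 in null and 5905 ± 1415 in control mice; SD, n = 3 each). The lowest of the others was Lct, lactase, at 714.5, 4815.5 and 569.1 in null mice and at 11317.3, 10927.9 and 10865.6 in control mice without overlap (log2 change -3.12, adjusted p = 0.0606 in limma). Lct was called in 3 of 16 alternatives, among them without null replicate 2. Groups did not overlap either for Fabp2 (log2 change -1.31), Slc2a2 (-0.87), Apob (-0.67), Apoa4 (-0.63) and Mttp (-0.43), none of them called. Of all tested probe sets 10.8% had every null value below every control value. The keratins Krt8 (log2 change 0.10), Krt18 (0.35) and Krt19 (0.21) were the markers with a change above 0, with overlapping groups. Krt20, a keratin of mature enterocytes, was at 14360 ± 1176 in null and 15585 ± 1412 in control mice (SD, n = 3 each), and Apoa1, a lipoprotein of enterocytes, at 22216 ± 2376 and 24174 ± 2766. The part of enterocyte numbers in the lower levels of the drug barrier genes was not tested.

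Of 6 tested markers of the proximal small intestine 0 were called, with a median log2 change of -0.08, though 1 was called lower with sex as a covariate, with males only and without null replicate 2. Of 5 tested markers of the distal part 1 was called lower, the receptor Cubn (cubilin), and 2 were called without control replicate 2. The 10 smooth muscle markers summed to 23715 to 28221 in null and 15633 to 21966 in control mice. Of these 1 was called higher, Actg2, which was called in 4 of the 6 fits that left out a mouse (not without null replicate 1 or null replicate 3). Actg2, at 7351 in null and 2904 in control mice, had the largest difference of the list and made much of the gap between these sums. The other 9 were not called, among them Cnn1 (log2 change 0.90), Myh11 (0.18) and Mylk (-0.004), and 2 of the 10 were below 0. The 9 goblet and Paneth markers summed to 83712 to 90698 in null and 67518 to 88441 in control mice. Of these 1 was called higher, Mptx1, which was called in 1 of those 6 fits (without control replicate 1). Of 17 leukocyte markers 9 were tested and 6 had a log2 change below 0. Of the 9, 1 was called lower, Lyz2, a lysozyme of macrophages (log2 change -0.82), which was called in 1 of those 6 fits (without control replicate 2). The leukocyte sums were 8015 to 8078 in null and 9357 to 11510 in control mice. Lyz2 was the brightest of the list, at 3687 in null and 6598 in control mice, so these sums largely follow it. Cd14 (1139 in null, 831.7 in control mice) and Cd68 (418.0 and 352.0) were higher in null mice without overlap, and were not called. Sums of pancreas markers overlapped (22050 to 24370 in null, 21977 to 24218 in control mice), with 0 of 7 called. Most of each was Reg1, at 16460 to 19303 in null and 17240 to 19396 in control mice. The pancreas sum thus says little about the dimmer pancreas markers or about attached pancreas. Sums of liver markers overlapped too (1267 to 1511 in null, 1448 to 1678 in control mice), with 0 of 5 called. The part of these cell types and organs in the members' differences was not tested.

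Profiles over the 6 mice were compared by the root mean square difference of log2 values centred on each probe set's own mean. The 5 genes outside the group nearest to Cyp3a11 were Cyp4v3, a fatty acid hydroxylase (0.54), Rufy3 (0.55), Cyp4a10, a fatty acid hydroxylase (0.63), Pdk4, the kinase of pyruvate dehydrogenase (0.65), and Lct, lactase (0.78). Cyp4v3 shared with Cyp3a11 the wide spread of the nulls, at 691.3, 5743.9 and 1930.3 in null mice and at 14335.7, 13349.0 and 14476.3 in control mice, with the female highest among nulls.

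Nearest to Abcb1a were Fbp1, fructose bisphosphatase (0.51), Osbpl1a, an oxysterol-binding protein (0.52), Pck1, a key enzyme of gluconeogenesis (0.53), Aldh1a1 (0.59) and Retsat, which saturates retinol (0.61). Pck1 was at 77.8, 150.4 and 81.4 in null mice and at 612.0, 1825.3 and 577.6 in control mice, with control replicate 2 highest as in Abcb1a. These likenesses describe 6 arrays, and most of each lies in the difference between the groups.

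**Figure D5:**
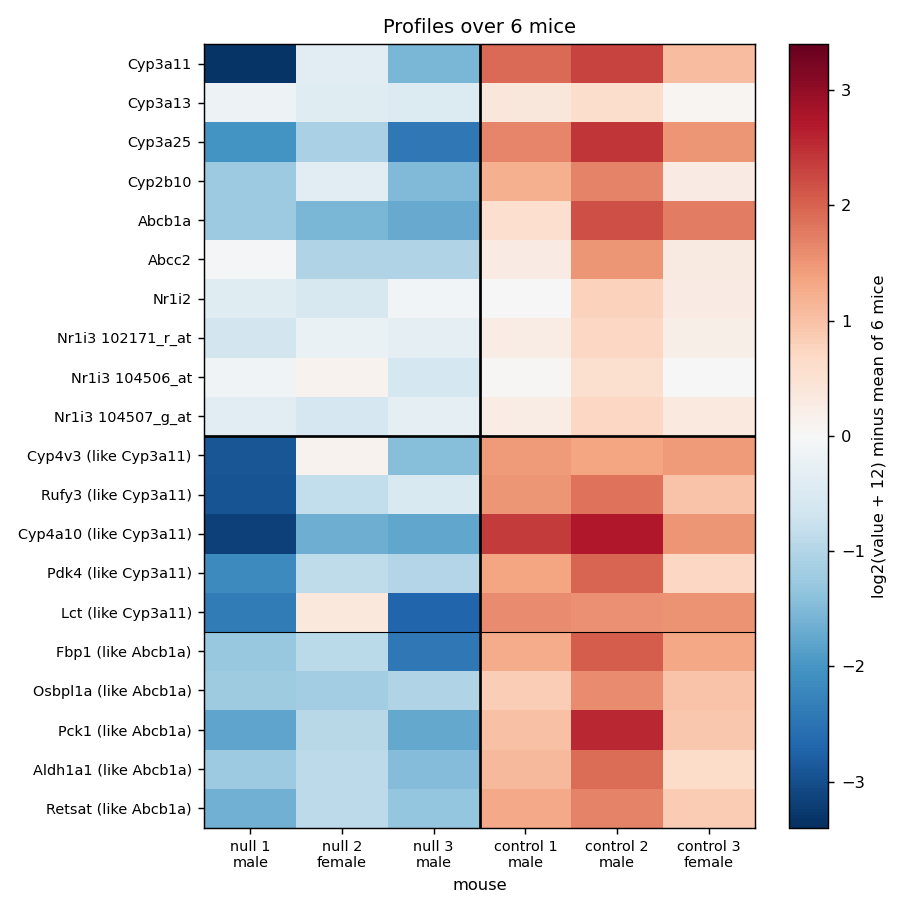
Log2(value + 12) minus the mean of 6 mice (colour, blue below and red above the mean) for the 10 member probe sets and the 5 genes nearest in profile to Cyp3a11 and to Abcb1a, with null mice on the left and control mice on the right. Null replicate 2 is the palest null for Cyp3a11, Cyp3a25 and Cyp2b10 but not for Abcb1a, and control replicate 2 is the darkest control for all 10 member probe sets.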

How the data were processed

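The deposited values are probe set intensities of 6 arrays on a linear scale, scaled by the authors to equal trimmed means; the software and its steps are not given in the sources used here. Of 12488 probe sets, 66 that serve as array controls were set aside. Probe sets were named from the platform annotation (10833 with 1 symbol, 396 with several, 1193 with none).

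Values were turned into log2(value + 12), 12 being the 10th percentile, so changes of dim genes are understated. The 7601 probe sets with 3 or more arrays over 109.7 (40th percentile) were tested. The comparison of null with control used limma 3.58.1 under R 4.3.3, with lmFit, trended eBayes and two-sided p-values, adjusted after Benjamini and Hochberg across these 7601 and called under 0.05. Sex, and its interaction with genotype, were tested in the same way. Where the lower group's mean lay at or under 109.7, a fold is a bound. The functions were tested on simulated data.

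The members and lists were chosen with earlier results of these data known, and the motifs after the promoters had been seen. Named from each list were up to 4 called genes with the largest change, or, where none was called, the 2 brightest. Abca1, Alas1, Gstp1, Gsta4, Cyp2c38, Gstm3, Gsta2, Hnf4a, Krt20, Apoa1, Lct, Fabp2, Slc2a2, Apob, Apoa4, Mttp, Fabp6, Fgf15, Vil1, Alb, Cd14, Cd68, Reg1 and the neighbouring genes were added after their values were seen. So were Krt8, Krt18, Krt19, Cnn1, Myh11 and Mylk. The number of arrays limits the precision. Alternatives were quantile normalization, equal medians, pseudocounts of 3 and 48, no filter, a stricter filter (288.7, the 60th percentile), a sex covariate, a fit of males alone, no variance trend, robust variance, each mouse left out, the mean over probe sets and, added after seeing the data, the shared part of the sample codes as a block.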

Additional observations from a re-analysis of the deposited data

How the results depend on the processing

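All 160 log2 changes of the 10 member probe sets under the 16 alternatives kept their sign; with groups that hardly overlap this is no sign of stability. Cyp3a25 was called lower in all 16, and Abcb1a in 15 (not with males only). Cyp2b10 was called in 9, the called Nr1i3 probe set in 8 and Cyp3a11 in 7. The Nr1i3 call was lost whichever mouse was left out. All these fits use the arrays on which the genes were chosen, so the calls that were kept support nothing. The 5 member probe sets called lower became 3 with no filter, 3 with males only, 3 with robust variance, 2 without a variance trend, and 2 to 4 when a mouse was left out; 0 were called higher under any. Over all probe sets, 86 higher and 142 lower became 50 and 85 with males only, 49 and 92 without a variance trend, and 17 to 68 and 35 to 117 when a mouse was left out. For female against male, the 2 calls became 1 with no filter, 1 with quantile normalization, 0 with a pseudocount of 48, 0 without a variance trend and 0 to 1 without a mouse; the causes were not tested. The interaction could not be fitted without either female. With the shared part of the sample codes as a block, chosen after seeing the data, 49 were called higher and 69 lower over all probe sets, and 2 of the members lower. No paired analysis was made, because the labels name no pairs and the codes are not said to mark litters or days. Replicate numbers were given here in the order of the samples and are not in the labels. Dim signal leaves Cyp3a16 and Abcb1b without a comparison.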

Other observations

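The genes beside the members on the chromosomes were read as well, taking 2 protein-coding genes on each side in the RefSeq annotation. Of 31 such genes outside the group 10 were on the array, 3 passed the filter on dim values and 0 were called (limma). Cyp2s1, a P450 enzyme beside Cyp2b10, was at 725.3, 437.5 and 553.9 in null mice and at 736.9, 778.8 and 662.3 in control mice, with overlapping groups. Cox17, a copper chaperone of cytochrome oxidase near Nr1i2, was at 2819.2, 3241.7 and 2836.9 in null mice and at 2901.8, 2987.7 and 3248.3 in control mice. Abcb4, the phospholipid pump next to Abcb1b, was at 62.4, 108.4 and 61.7 in null mice and at 137.0, 83.7 and 125.4 in control mice, too dim to be tested.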
